A study of Mus musculus with 18 samples.

Results

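The interferon-stimulated antiviral genes described here are 35 genes of the mouse genome that cells switch on when they sense interferon: Stat2, Irf1, Irf7, Irf9, Ifit1, Ifit2, Ifit3, Ifi44, Ifih1, Ddx58, Dhx58, Isg15, Usp18, Rsad2, Oas1a, Oas1g, Oas2, Oas3, Oasl1, Oasl2, Mx1, Mx2, Cxcl9, Cxcl10, Bst2, Xaf1, Parp9, Parp14, Dtx3l, Trim30a, Zbp1, Cmpk2, Rtp4, Lgals3bp and Ifi35. They were chosen by name from the 37315 genes of the deposited count table, and each was found there under 1 identifier. All 35 were among the 16213 genes that passed the filter on low counts. That filter is set on all 6 groups and asks for no difference between them.

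The libraries hold RNA of mouse liver. There were 6 groups of 3 libraries. Mice aged 2, 8 or 16 weeks received asparaginase (Elspar, the bacterial enzyme L-asparaginase used against leukaemia, which removes asparagine from the blood), and mice of the same ages received PBS, the buffer alone. All mice were C57BL/6J, all injections were given daily into the abdomen, and each group received 7 injections except both 8-week groups, which received 8. Livers were taken some hours after the last injection. The study asks how the liver's response to asparaginase depends on age. In replicate order the labelled sexes were male, female and female with asparaginase and male, male and female with PBS at 2 weeks; female, male and male with asparaginase and female, male and female with PBS at 8 weeks; and male, male and female with asparaginase and female, female and male with PBS at 16 weeks. Adult asparaginase groups thus held 1 female and 2 males, and adult PBS groups held 2 females and 1 male.

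Interferons of type I and type III are released by cells that detect viral nucleic acid, and interferon gamma is released chiefly by T and NK cells. Type I and type III receptors signal through the kinases Jak1 and Tyk2 to a complex that contains Stat2 and Irf9 and binds a DNA element called the ISRE in the promoters of antiviral genes; interferon gamma acts on an element called GAS. In liver, hepatocytes, endothelial cells and the resident macrophages called Kupffer cells all respond, and a low tonic signal keeps many of these genes measurable without infection.

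Promoters of the set were searched for the ISRE and GAS elements through which interferons act. Of the 35 genes, 26 had an entry in the RefSeq table of windows from 250 bases before to 50 bases after the start of transcription (GRCm38.p6); the other 9 were Zbp1, Dhx58, Parp14, Oas2, Usp18, Mx1, Mx2, Rtp4 and Parp9. The ISRE core was searched as GAAANNGAAA and as its reverse complement TTTCNNTTTC, with overlapping copies counted, and was found in 13 of the 26 windows (50%), against 1079 of 27025 genes with a window (3.99%). The GAS core, TTCNNNGAA, reads the same on both strands. It was found in 5 of the 26 windows (19.2%), those of Bst2, Ifit2, Ifi35, Irf1 and Oas1a, against 2582 of the 27025 genes (9.55%). A match says that these letters are present, not that a factor binds there. Among the genes with an ISRE core wholly before the start, the 6 with the smallest p-values for asparaginase at 8 weeks were taken. Given here are 100 bases around the ISRE cores of these 6, on each gene's own strand, with the cores in capitals.
Isg15: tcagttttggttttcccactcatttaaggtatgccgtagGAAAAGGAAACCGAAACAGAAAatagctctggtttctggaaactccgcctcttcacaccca
Bst2: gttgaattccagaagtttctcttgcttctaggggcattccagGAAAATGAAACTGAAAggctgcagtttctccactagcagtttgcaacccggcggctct
Ifit3: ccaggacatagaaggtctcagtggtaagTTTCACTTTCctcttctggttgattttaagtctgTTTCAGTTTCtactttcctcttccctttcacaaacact
Ifit1: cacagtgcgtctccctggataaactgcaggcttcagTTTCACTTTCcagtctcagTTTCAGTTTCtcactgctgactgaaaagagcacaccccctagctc
Rsad2: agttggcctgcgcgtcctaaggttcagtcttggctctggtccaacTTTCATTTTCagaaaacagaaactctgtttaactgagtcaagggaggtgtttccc
Oas1a: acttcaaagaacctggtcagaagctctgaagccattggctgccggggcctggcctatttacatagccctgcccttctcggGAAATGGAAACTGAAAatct

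The Isg15 stretch lies at chr4:156200836-156200935 on the minus strand, -117 to -18 from the start, and holds 3 overlapping cores. That of Bst2 is at chr8:71537545-71537644 on the minus strand, -172 to -73, with 2 overlapping cores. Ifit3 and Ifit1 are both on the plus strand of chromosome 19, at chr19:34583345-34583444 (-184 to -85) and chr19:34640749-34640848 (-140 to -41), and each has 2 separate cores on the opposite strand. The Rsad2 stretch, at chr12:26456518-26456617 on the minus strand (-165 to -66), has 1 core, and that of Oas1a, at chr5:120907526-120907625 on the minus strand (-100 to -1), has 2 overlapping cores next to the start.

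**Figure D1:**
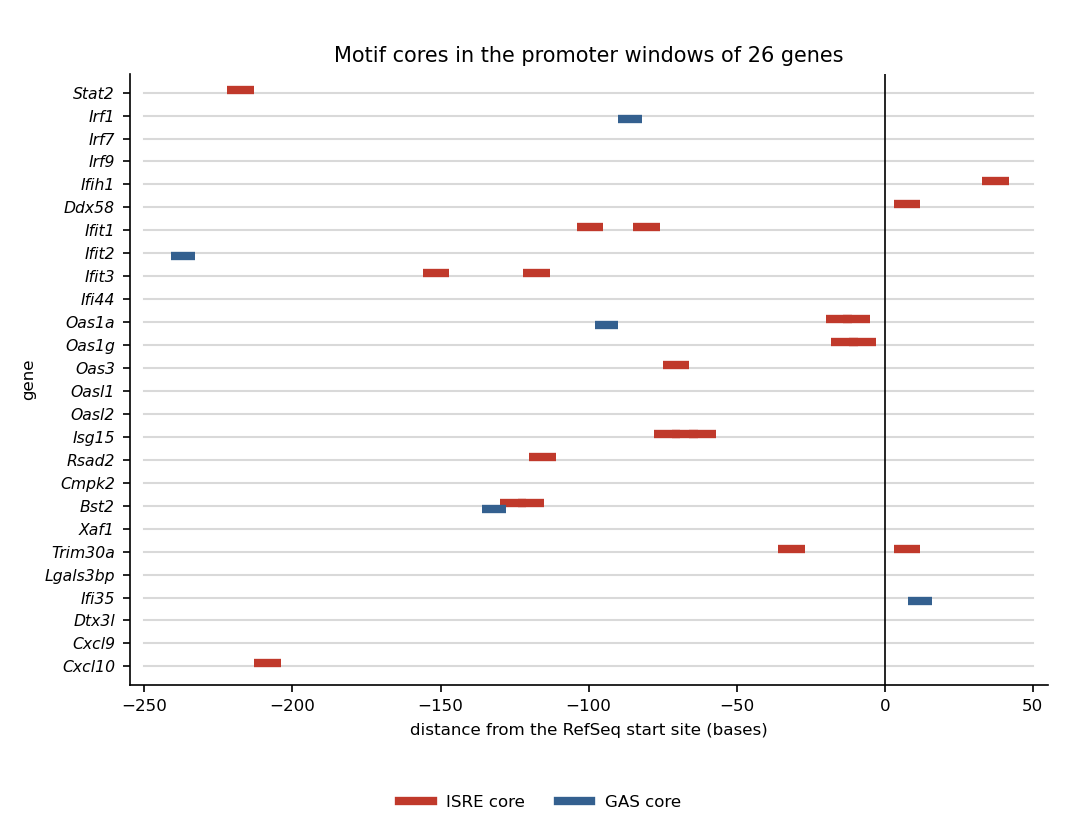
Position of each ISRE core (red) and GAS core (blue) in the promoter windows of the 26 genes with an entry, in bases from the start of transcription (vertical line at 0). Each grey line is 1 gene's window; 13 genes hold an ISRE core and 5 a GAS core, and Isg15 holds 3 overlapping ISRE cores.

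Total counts lay between 24690871 and 46949361 per library. Summed markers of hepatocytes, including Alb, lay between 65660 and 108200 CPM (counts scaled by library size, the total times its TMM factor), so that the tissue was liver in every library. Major urinary protein genes took 0.046% to 0.579% of counts at 2 weeks and 5.39% to 47.9% in adults. At 2 weeks PBS libraries 1 and 2 and asparaginase library 3 held Xist together with Y-linked transcripts, so their labelled sex is not that of 1 mouse. At 8 weeks asparaginase libraries 1 and 2 held 928.6 and 501 CPM of 14 squamous epithelium markers such as Krt5, against 31.24 to 100.7 CPM in all other libraries. Results were therefore also computed without these libraries. The fits carry a term for labelled sex at each age, which the fit without the libraries of both sexes left out at 2 weeks. All results given without the libraries of both sexes thus reflect both changes. The design text counts 3 mice per group, and p-values measure the spread between these libraries.

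The set as a whole was not tested. In the mean of the 3 age effects of asparaginase, 9 of the 35 genes fell: Cxcl9, Irf7, Isg15, Rsad2, Irf9, Ifit1, Rtp4, Dhx58 and Stat2. These 9 are 25.7% of the set, against 2.86% of all genes tested that fell in this comparison. None of the 35 rose, against 2.55% of all genes. The fitted log2 fold change was negative for 34 of 35 members, with a median of -0.46, against 0.00 over all genes; the exception was Dtx3l at 0.04. DESeq2 called 17 lower, against 5.35% of all genes. The count of 9 leaned on single libraries. It was 0 without asparaginase library 1 of 2 weeks, asparaginase library 1 of 8 weeks or asparaginase library 3 of 16 weeks. It was 1 without PBS library 2 of 16 weeks or asparaginase library 1 of 16 weeks, and 2 without PBS library 2 of 8 weeks, PBS library 1 of 16 weeks or asparaginase library 3 of 8 weeks. It was 3 without PBS library 3 of 16 weeks, and 4 without asparaginase library 3 of 2 weeks or asparaginase library 2 of 8 weeks. The count was 14 without asparaginase library 2 of 16 weeks and 15 without PBS library 3 of 2 weeks. It was also 0 without the 3 libraries of both sexes, and 0 without the pair with squamous transcripts. In this mean most members stayed negative over all 27 settings, between 32 and 35 of them, and the median lay between -0.61 and -0.28.

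No member passed the test at a single age. At 2 weeks 0 of 35 fell (0.105% of all genes did), and 12 were lower at an unadjusted p under 0.05, against 5.96% of all genes. At 8 weeks 0 fell (0.173% of all genes), and 15 were lower at an unadjusted p under 0.05 (8.82% of all genes). At 16 weeks 0 fell (0.0432% of all genes), and 5 were lower at an unadjusted p under 0.05 (5.33% of all genes). None was higher at an unadjusted p under 0.05 at any age. The unadjusted counts also leaned on single libraries. The 12 at 2 weeks became 0 without asparaginase library 1, 4 without PBS library 1 or without the sex term, 24 without PBS library 3 and 2 without the libraries of both sexes. At 8 weeks the 15 became 8 without PBS library 2, 7 without asparaginase library 1 and 5 without the pair with squamous transcripts. At 16 weeks the 5 became 0 without asparaginase library 1, asparaginase library 3 or PBS library 1, 2 without PBS library 2, 11 without asparaginase library 2 and 8 without the sex term. Leaving out libraries of other ages changed these 5 as well, to 1 (asparaginase library 2 of 2 weeks or asparaginase library 1 of 8 weeks), 2 (asparaginase library 3 of 2 weeks, asparaginase library 2 or PBS library 3 of 8 weeks, or the squamous pair) or 3 (PBS library 2 of 2 weeks, PBS library 1 or 2 of 8 weeks). With DESeq2, which called more genes in all, 1 member fell at 2 weeks (Rsad2, against 1.31% of all genes), 5 at 8 weeks (Irf7, Isg15, Oasl1, Cxcl9 and Zbp1, against 1.97% of all genes) and 0 at 16 weeks (1.06% of all genes). The effect was negative for 35 members at 2 weeks, 33 at 8 weeks and 30 at 16 weeks, with medians of -0.43, -0.54 and -0.27, where the medians of all genes were -0.01, 0.01 and 0.00. At 2 weeks the median was -0.10 with 25 members negative without asparaginase library 1, and -0.93 with 35 negative without PBS library 3. Without the sex term the 2-week median was -0.34 with 31 negative. At 16 weeks it was 0.02 with 16 negative without asparaginase library 3, the only female of its group, and -0.61 with 34 negative without PBS library 3, the only male of its group. It was -0.45 with 34 negative without asparaginase library 2 of that age, and -0.18 with 28 negative without PBS library 2. Without the sex term it was -0.55 with 34 negative.

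No difference between ages in the size of the effect was detected. In the joint test of whether the effect of asparaginase differed between ages, 0 of 35 members passed by edgeR, as did 0% of all genes, and 0 members had an unadjusted p under 0.05 (9.43% of all genes did). The median difference of effects was -0.03 between 8 and 2 weeks, 0.21 between 16 and 2 weeks and 0.23 between 16 and 8 weeks. The mean effect over the 2 adult ages, added after the data were seen, had a median of -0.44 with 33 members negative, but 0 members fell, against 1.1% of all genes. At an unadjusted p under 0.05, 20 were lower (9.54% of all genes), and DESeq2 called 7 (3.24% of all genes). Those 20 became 2, with a median of -0.25, without asparaginase library 3 of 16 weeks. They became 10 without PBS library 2 of 8 weeks, 13 without asparaginase library 1 of 8 weeks and 12 without the squamous pair. The median was -0.66 without the sex term.

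**Figure D2:**
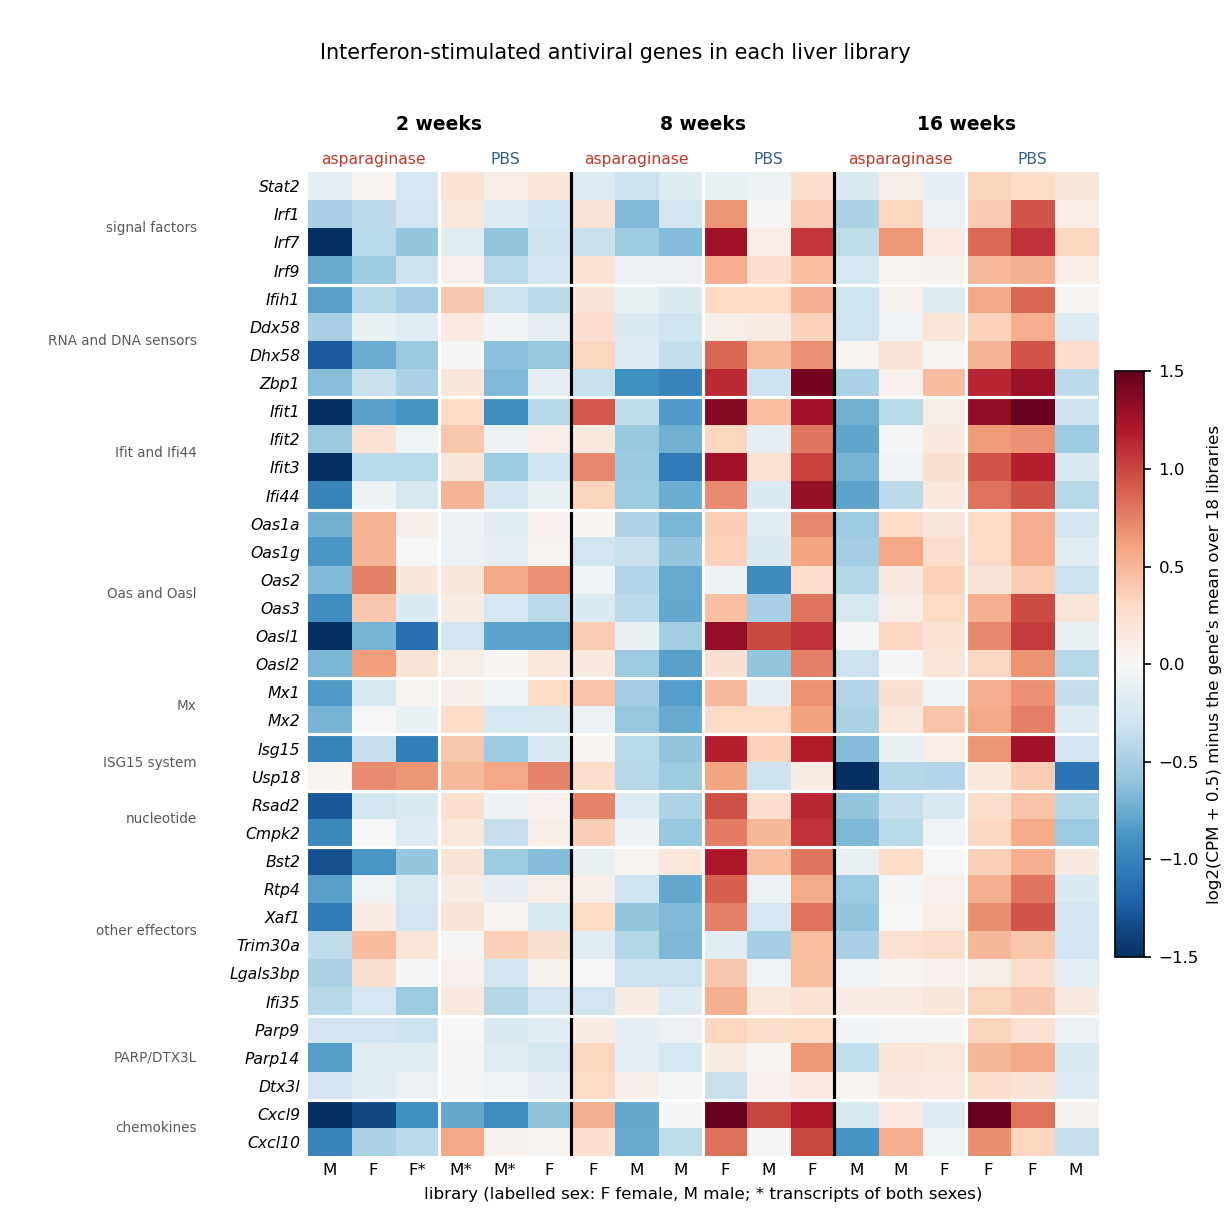
Level of each of the 35 genes (rows, by role) in each of the 18 libraries (columns), as log2(CPM + 0.5) minus the gene's mean over all libraries; colours stop at 1.5 in either direction. Blue dominates in asparaginase library 1 of 2 weeks and red in the adult PBS females, while the adult PBS males are pale or blue for many genes.

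The mean of the 35 genes on the log2(CPM + 0.5) scale was also taken by library, without a term for sex. At 2 weeks it was 2.19, 2.89 and 2.75 with asparaginase (libraries 1 to 3, in replicate order), against 3.16, 2.79 and 2.92 with PBS. At 8 weeks it was 3.19, 2.67 and 2.53 with asparaginase, against 3.65, 3.08 and 3.75 with PBS. At 16 weeks it was 2.61, 3.10 and 3.12 with asparaginase, against 3.58, 3.74 and 2.84 with PBS. The groups overlap at every age: the asparaginase female at 8 weeks was above the PBS male, and at 16 weeks the PBS male was below a male and a female given asparaginase. As group means these are 2.61 ± 0.37 with asparaginase and 2.96 ± 0.19 with PBS at 2 weeks, 2.80 ± 0.35 and 3.50 ± 0.36 at 8 weeks, and 2.94 ± 0.29 and 3.39 ± 0.48 at 16 weeks, asparaginase before PBS (SD, n = 3 each). Treatment and the unequal sex mix of the adult groups cannot be told apart in this mean. No p-value is given for it, because the genes were chosen with results of these data known.

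A few libraries held the extremes. Among the 6 libraries of 2 weeks, asparaginase library 1 was lowest for 30 of the 35 genes and PBS library 1 highest for 25. At 8 weeks asparaginase library 3 was lowest for 26, and PBS libraries 3 and 1 were highest for 21 and 13. At 16 weeks asparaginase library 1 was lowest for 29 and PBS library 2 highest for 28. In the 8-week and 16-week groups the lowest library was a male and the highest was a female.

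**Figure D3:**
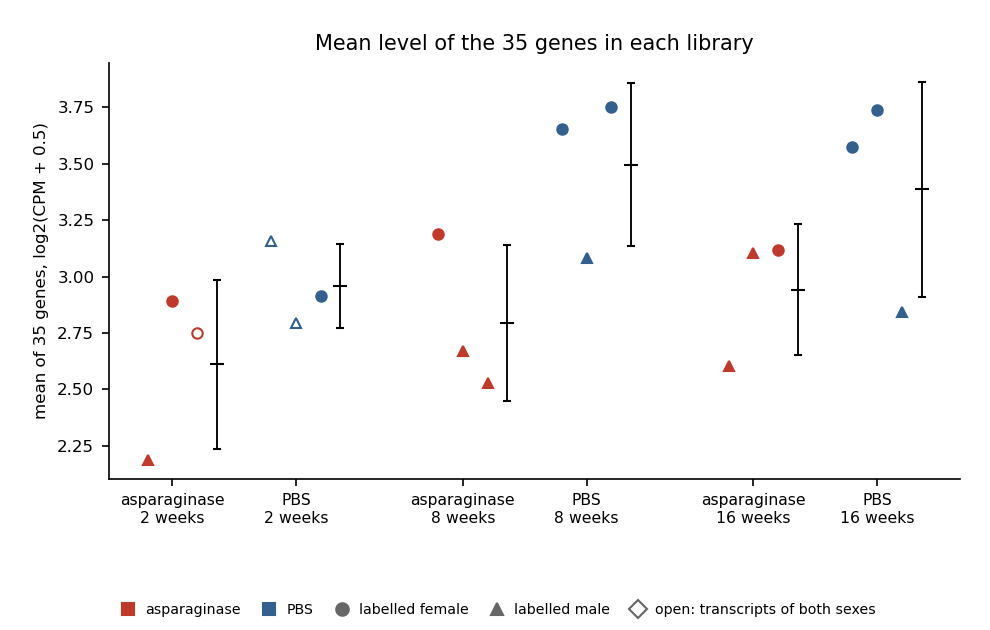
Mean of the 35 genes in each library on the log2(CPM + 0.5) scale, by treatment and age; bars give group mean ± SD (n = 3), circles labelled females, triangles labelled males and open symbols libraries with transcripts of both sexes. The 8-week asparaginase libraries run from 2.53 to 3.19 and the 8-week PBS libraries from 3.08 to 3.75.

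Signal factors come first in the pathway. Stat2 (ENSMUSG00000040033, chr10:128270559-128292849, GRCm38) is a subunit of the complex that type I interferon activates. At 2 weeks Stat2 had 41.5, 46.6 and 37.8 CPM with asparaginase, against 52.8, 48.8 and 51.8 CPM with PBS. At 8 weeks Stat2 had 39.7, 36.3 and 40.2 CPM with asparaginase, against 42.0, 43.1 and 54.0 CPM with PBS. At 16 weeks Stat2 had 39.1, 48.4 and 42.0 CPM with asparaginase, against 57.5, 55.2 and 51.4 CPM with PBS. It is the only member with every asparaginase library below every PBS library at all 3 ages, although the gap at 8 weeks was small. Stat2 fell by a log2 fold change of -0.28 (SE 0.07, adjusted p = 0.0465) in the mean of the ages, the shallowest of the 9.

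Irf9 (ENSMUSG00000002325, chr14:55603571-55610030), the DNA-binding subunit of the same complex, followed a like pattern. Irf9 at 2 weeks had 11.8, 13.8 and 16.2 CPM with asparaginase, against 21.1, 15.1 and 16.6 CPM with PBS. Irf9 at 8 weeks had 23.3, 18.9 and 18.9 CPM with asparaginase, against 29.7, 24.0 and 27.8 CPM with PBS. Irf9 at 16 weeks had 16.7, 20.7 and 20.9 CPM with asparaginase, against 28.5, 29.4 and 21.7 CPM with PBS. The groups were apart at 8 and 16 weeks and overlapped at 2 weeks. Irf9 fell by a log2 fold change of -0.35 (SE 0.09, adjusted p = 0.0366) in the mean of the ages. Of its 5386 exon bases, 123 are shared with Rnf31 on the same strand.

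Irf7 (ENSMUSG00000025498, chr7:141262706-141266481) is the transcription factor that amplifies interferon production. Irf7 at 2 weeks had 6.82, 15.2 and 13.5 CPM with asparaginase, against 18.2, 13.4 and 16.3 CPM with PBS. Irf7 at 8 weeks had 16.1, 14.0 and 12.8 CPM with asparaginase, against 49.9, 21.9 and 43.0 CPM with PBS. Irf7 at 16 weeks had 15.5, 32.2 and 22.3 CPM with asparaginase, against 37.0, 43.7 and 25.5 CPM with PBS. At 8 weeks all asparaginase libraries were below all PBS libraries, and the PBS females stood far above the PBS male. The log2 fold change of Irf7 was -0.76 (SE 0.18, adjusted p = 0.034) in the mean of the ages and -1.12 (SE 0.32, adjusted p = 0.097) at 8 weeks. Irf1, a factor shared by interferon gamma signalling, did not pass, with a log2 fold change of -0.38 in the mean of the ages and overlap at every age.

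Of the sensors of foreign nucleic acid and their partners, Dhx58 passed in the mean of the ages. Dhx58 (ENSMUSG00000017830, chr11:100694884-100704271) encodes LGP2, which tunes the RNA sensors RIG-I and MDA5. Dhx58 at 2 weeks had 1.74, 2.68 and 3.12 CPM with asparaginase, against 4.77, 2.96 and 3.11 CPM with PBS. Dhx58 at 8 weeks had 6.14, 4.16 and 3.64 CPM with asparaginase, against 9.15, 6.92 and 8.07 CPM with PBS. Dhx58 at 16 weeks had 4.96, 5.58 and 4.97 CPM with asparaginase, against 7.07, 9.75 and 5.88 CPM with PBS. The groups were apart at 8 and 16 weeks and overlapped at 2 weeks, and Dhx58 fell by a log2 fold change of -0.57 (SE 0.15, adjusted p = 0.0426) in the mean of the ages. Its exons share 141 bases with the antisense gene Dhx58os.

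Zbp1 (ENSMUSG00000027514, chr2:173206612-173218923), a sensor of nucleic acid in the Z form that can trigger cell death, had the smallest p-value of the set at 8 weeks. Zbp1 at 8 weeks had 2.98, 1.82 and 1.69 CPM with asparaginase, against 9.02, 3.05 and 11.4 CPM with PBS. The groups did not overlap, but the PBS male was next to the asparaginase female. The log2 fold change was -1.32 (SE 0.33, adjusted p = 0.0719) for Zbp1 at 8 weeks, and -0.68 (adjusted p = 0.0524) in the mean of the ages. Ifih1 encodes MDA5 and Ddx58 RIG-I, the sensors of long and of capless viral RNA. In the mean of the ages their log2 fold changes were -0.46 for Ifih1 and -0.19 for Ddx58, and neither passed.

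Ifit proteins bind foreign RNA ends and block their translation. Ifit1 (ENSMUSG00000034459, chr19:34640871-34650009) had the largest fitted change of the set in the mean of the ages. Ifit1 at 2 weeks had 0.959, 2.23 and 2.12 CPM with asparaginase, against 5.39, 2.03 and 3.11 CPM with PBS. Ifit1 at 8 weeks had 8.61, 3.19 and 2.17 CPM with asparaginase, against 12.1, 6.06 and 11.0 CPM with PBS. Ifit1 at 16 weeks had 2.43, 3.13 and 4.63 CPM with asparaginase, against 11.6, 15.4 and 3.36 CPM with PBS. The groups overlapped at every age, each time because of 1 library: a PBS library at 2 weeks, the asparaginase female at 8 weeks and the PBS male at 16 weeks. The log2 fold change of Ifit1 was -0.96 (SE 0.24, adjusted p = 0.0385) in the mean of the ages, -1.17 (SE 0.44, adjusted p = 0.282) at 2 weeks and -0.94 (SE 0.43, adjusted p = 0.434) at 16 weeks. Ifit2 and Ifit3 did not pass, with log2 fold changes of -0.38 and -0.67 in the mean of the ages, nor did Ifi44 at -0.64. Counts of Ifit1 and Ifit3 are uncertain where reads fit their close copies.

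Isg15 (ENSMUSG00000035692, chr4:156199424-156200818) is a ubiquitin-like protein that is attached to other proteins during infection. Isg15 at 2 weeks had 1.89, 3.30 and 1.85 CPM with asparaginase, against 5.92, 2.82 and 3.64 CPM with PBS. Isg15 at 8 weeks had 4.41, 3.13 and 2.68 CPM with asparaginase, against 10.3, 5.63 and 10.4 CPM with PBS. Isg15 at 16 weeks had 2.57, 3.94 and 4.67 CPM with asparaginase, against 7.13, 11.2 and 3.43 CPM with PBS. At 8 weeks the groups were apart, and at 16 weeks the PBS male was among the asparaginase libraries. Isg15 fell by a log2 fold change of -0.83 (SE 0.20, adjusted p = 0.0344) in the mean of the ages. Usp18, the protease that removes Isg15 and damps the type I receptor, had a log2 fold change of -0.23 (adjusted p = 0.436).

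Rsad2 (ENSMUSG00000020641, chr12:26442746-26456452) encodes viperin, which makes a chain-terminating nucleotide. Rsad2 at 2 weeks had 1.62, 3.72 and 3.92 CPM with asparaginase, against 5.54, 4.34 and 4.83 CPM with PBS. Rsad2 at 8 weeks had 8.05, 3.96 and 3.19 CPM with asparaginase, against 9.41, 5.53 and 10.7 CPM with PBS. Rsad2 at 16 weeks had 2.88, 3.52 and 3.86 CPM with asparaginase, against 5.60, 6.37 and 3.29 CPM with PBS. Its groups were apart at 2 weeks only, and asparaginase library 1 was the low library there. The log2 fold change of Rsad2 was -0.58 (SE 0.14, adjusted p = 0.0357) in the mean of the ages and -0.94 (SE 0.26, adjusted p = 0.147) at 2 weeks. Its neighbour on chromosome 12, Cmpk2, a mitochondrial nucleotide kinase, had a log2 fold change of -0.57 (adjusted p = 0.0535) in the mean of the ages.

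Rtp4 (ENSMUSG00000033355, chr16:23520291-23614222) is an interferon-induced chaperone-like protein. Rtp4 at 2 weeks had 3.89, 6.97 and 6.04 CPM with asparaginase, against 7.88, 6.62 and 7.74 CPM with PBS. Rtp4 at 8 weeks had 7.64, 5.78 and 4.04 CPM with asparaginase, against 13.9, 6.82 and 10.9 CPM with PBS. Rtp4 at 16 weeks had 4.78, 7.13 and 7.60 CPM with asparaginase, against 10.8, 13.0 and 6.20 CPM with PBS. The groups overlapped at every age, and in adults the overlap was between asparaginase libraries and the PBS male. Rtp4 fell by a log2 fold change of -0.50 (SE 0.13, adjusted p = 0.0418) in the mean of the ages. Of its exon bases, 296 are shared with Gm45338 on the same strand.

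Cxcl9 (ENSMUSG00000029417, chr5:92321347-92328079), a chemokine that draws T cells through the receptor Cxcr3 and is driven mainly by interferon gamma, had the smallest p-value in the mean of the ages. Cxcl9 at 2 weeks had 1.99, 2.29 and 3.31 CPM with asparaginase, against 3.70, 3.25 and 4.22 CPM with PBS. Cxcl9 at 8 weeks had 9.92, 3.73 and 6.78 CPM with asparaginase, against 27.9, 14.0 and 16.3 CPM with PBS. Cxcl9 at 16 weeks had 5.59, 7.34 and 5.78 CPM with asparaginase, against 20.3, 12.1 and 6.97 CPM with PBS. The groups were apart at 8 weeks, and at the other ages 1 library of each treatment crossed. The log2 fold change of Cxcl9 was -0.92 (SE 0.20, adjusted p = 0.0238) in the mean of the ages, -1.28 (SE 0.33, adjusted p = 0.0767) at 8 weeks and -0.80 (SE 0.37, adjusted p = 0.435) at 16 weeks. Cxcl10, a second Cxcr3 ligand, at 2 weeks had 0.581, 1.04 and 1.14 CPM with asparaginase, against 2.73, 1.74 and 1.72 CPM with PBS. These groups were apart, yet the log2 fold change of Cxcl10 was -1.26 (SE 0.50, adjusted p = 0.3) at 2 weeks and did not pass.

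**Figure D4:**
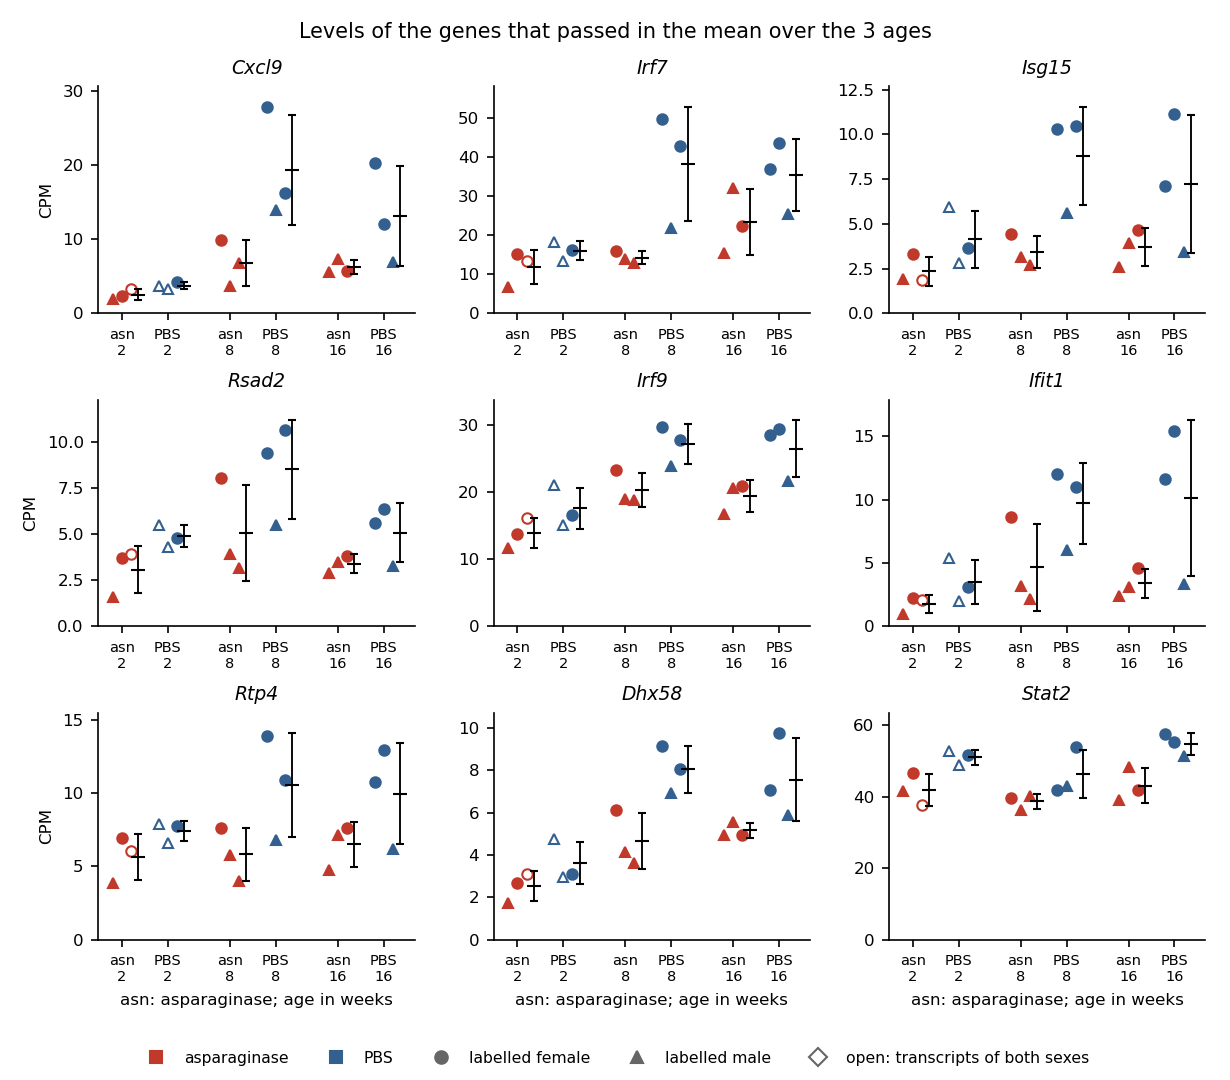
CPM of the 9 genes that fell in the mean of the 3 ages, in each library, by treatment (asparaginase red, PBS blue) and age; horizontal bars give mean ± SD (n = 3), circles labelled females, triangles labelled males and open symbols libraries with transcripts of both sexes. Stat2 is lower in every asparaginase library at each age, and at 8 and 16 weeks the PBS male (blue triangle) is the lowest PBS library for each of the other 8 genes.

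Among the remaining effectors, Oasl1, which in mice is reported to hold back Irf7 translation, came nearest to the threshold. Oasl1 at 8 weeks had 4.59, 3.16 and 2.26 CPM with asparaginase, against 9.31, 7.32 and 7.84 CPM with PBS. The groups were well apart, and the log2 fold change of Oasl1 was -1.16 (SE 0.31, adjusted p = 0.0881) at 8 weeks and -0.73 (adjusted p = 0.0519) in the mean of the ages. Oligoadenylate synthases make the messenger that activates RNase L. In the mean of the ages the log2 fold change was -0.26 for Oas1a, -0.29 for Oas1g, -0.14 for Oas2, -0.49 for Oas3 and -0.19 for Oasl2, and none of these passed. Oas1a and Oas1g are near-identical copies, and their split of reads is uncertain. Mx1, a dynamin-like GTPase whose C57BL/6J allele is known to be defective, at 2 weeks had 0.328, 0.762 and 1.03 CPM with asparaginase, against 1.07, 0.949 and 1.33 CPM with PBS. The log2 fold change of Mx1 was -1.02 (SE 0.41, adjusted p = 0.303) at 2 weeks, with 1 library of each treatment crossing.

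Bst2, or tetherin, which holds budding virus on the cell surface, was the most abundant member per kilobase of exon, at 62.2 CPM per kb over the asparaginase libraries and 93.4 CPM per kb over the PBS libraries. Lgals3bp, a secreted glycoprotein, came next at 15.3 CPM per kb with asparaginase and 17.6 CPM per kb with PBS. Oas3 was the least abundant, at 0.142 CPM per kb with asparaginase and 0.221 CPM per kb with PBS. The 9 genes that fell thus do not include the most abundant member. Bst2 at 8 weeks had 59.9, 66.4 and 72.4 CPM with asparaginase, against 150.5, 88.6 and 113 CPM with PBS, without overlap. Its log2 fold change was -0.54 (adjusted p = 0.0796) in the mean of the ages. Parp9 and Dtx3l, partners in a complex that modifies histones near DNA damage, had log2 fold changes of -0.18 and 0.04 in the mean of the ages; their exons share 458 bases on opposite strands, and how strand was used in counting is not given in the sources used here. Parp14, Xaf1, Trim30a, Lgals3bp, Ifi35 and Mx2 had log2 fold changes between -0.50 (Xaf1) and -0.16 (Trim30a), and none passed.

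**Figure D5:**
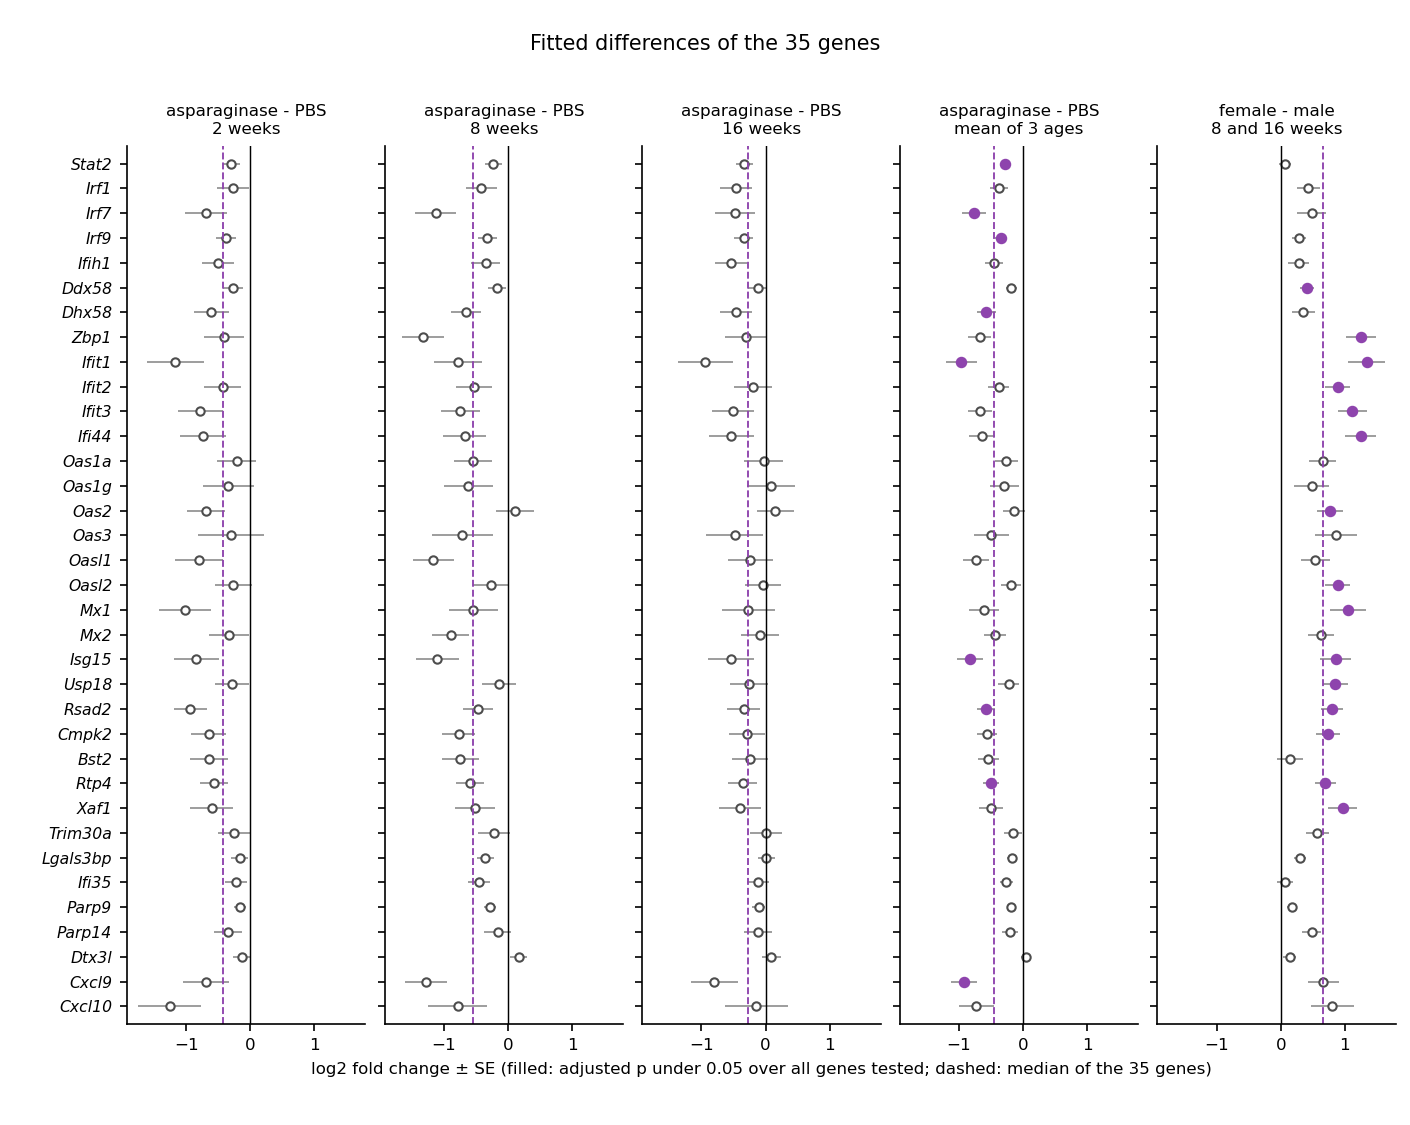
Fitted log2 fold change ± SE of each of the 35 genes (rows) for asparaginase minus PBS at 2, 8 and 16 weeks, for the mean of the 3 ages, and for female minus male adults. Filled points passed an adjusted p under 0.05 over all genes tested; 9 genes are filled left of 0 in the mean of the ages and 15 right of 0 for female minus male, and dashed lines give the median of the 35 genes.

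Every asparaginase library was below every PBS library for 5 of the 35 genes at 2 weeks (8.64% of all genes tested), namely Stat2, Ifih1, Rsad2, Cxcl10 and Parp9. At 8 weeks this held for 15 genes (8.57% of all genes), and at 16 weeks for 3 (9.63% of all genes), Stat2, Irf9 and Dhx58. The opposite order was seen for 0 members at each age. Since the adult groups differ in sex mix, the order was also taken within a sex, where 1 library stands on one side. At 8 weeks the asparaginase female was below both PBS females for 30 of 35 genes (34.5% of all genes), and both asparaginase males were below the PBS male for 30 (37.3% of all genes). At 16 weeks the asparaginase female was below both PBS females for 34 of 35 genes (37.6% of all genes). Both asparaginase males of 16 weeks were below the PBS male for 6 (37% of all genes), fewer than in the other 3 settings. That males and females of 16 weeks differ in their effect was not tested.

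Sex itself moved with these genes, in a comparison added after the data were seen: in females against males at 8 and 16 weeks, averaged over both ages, 15 of 35 members were higher (8.02% of all genes) and 0 were lower (4.87% of all genes). All 35 fitted differences were positive, with a median of 0.65, against 0.02 over all genes. Ifit1 was higher in females by a log2 fold change of 1.34 (SE 0.28, adjusted p = 0.0114). For Zbp1 the difference was 1.25 (SE 0.23, adjusted p = 0.00535), for Ifi44 1.24 (SE 0.24, adjusted p = 0.00735), for Ifit3 1.12 (SE 0.22, adjusted p = 0.00849) and for Rsad2 0.79 (SE 0.17, adjusted p = 0.0125). The other 10 were Oasl2, Rtp4, Ifit2, Xaf1, Usp18, Cmpk2, Ddx58, Oas2, Mx1 and Isg15, with log2 fold changes from 0.41 (Ddx58) to 1.04 (Mx1). The smallest differences, 0.07 each, were those of Stat2 and Ifi35. Of the 9 genes that fell with asparaginase, Ifit1, Rsad2, Rtp4 and Isg15 were among the 15, and Stat2, Irf9, Irf7, Dhx58 and Cxcl9 were not.

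The sex difference was seen in the PBS mice alone as an order of libraries. Both PBS females were above the PBS male for 31 of 35 genes at 8 weeks (35.8% of all genes) and for 35 of 35 at 16 weeks (39.6% of all genes). Zbp1 in PBS livers of 16 weeks had 9.17 and 10.3 CPM in the females, against 2.84 CPM in the male. Ifit1 had 11.6 and 15.4 CPM in the same females, against 3.36 CPM in that male. Usp18 had 11.8 and 13.8 CPM in those females, against 4.59 CPM in that male. The count of 15 also leaned on single libraries: it was 8 without PBS library 2 of 8 weeks, 1 without PBS library 3 of 16 weeks, 2 without asparaginase library 1 of 8 weeks and 1 without the pair with squamous transcripts. In all settings 0 members were lower in females and at least 33 were positive. All tests of asparaginase above carry a term for labelled sex within each age, and without it the median effect of asparaginase was -0.80 at 8 weeks and -0.55 at 16 weeks. At 2 weeks the median without that term was smaller, at -0.34, with 31 members negative. The 2-week term rests on labels that are not those of 1 mouse for the libraries of both sexes.

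Counted in both directions together, members differed by age in PBS mice no more often than all genes did. Of the 35 members 10 differed between 8 and 2 weeks (28.6%, against 31.7% of all genes): 9 were higher at 8 weeks (14.8% of all genes) and 1 was lower (16.9% of all genes). Cxcl9 had the largest difference, with 27.9, 14.0 and 16.3 CPM at 8 weeks, against 3.70, 3.25 and 4.22 CPM at 2 weeks, a log2 fold change of 2.16 (adjusted p = 0.00059). Oasl1 had 9.31, 7.32 and 7.84 CPM at 8 weeks, against 2.75, 1.76 and 1.75 CPM at 2 weeks, a log2 fold change of 1.82 (adjusted p = 0.00156). Neither gene's groups overlapped between these ages. The other members higher at 8 weeks were Ifit1 at 1.11, Bst2 at 1.09, Dhx58 at 1.03, Irf7 at 0.97, Irf9 at 0.55, Ifi35 at 0.52 and Parp9 at 0.40 (log2 fold changes). Oas2 was lower at 8 weeks, with 3.54, 1.72 and 4.65 CPM, against 4.30, 5.88 and 6.38 CPM at 2 weeks, a log2 fold change of -1.12 (adjusted p = 0.00964); 1 library of each age crossed. The count of 10 that differed was 6 without PBS library 2 of 2 weeks or PBS library 2 of 8 weeks, 2 without PBS library 3 of 2 weeks and 5 without the libraries of both sexes.

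Between 16 and 2 weeks in PBS mice 6 members differed (17.1%, against 27.8% of all genes): 5 were higher at 16 weeks (13.2% of all genes) and 1 was lower (14.5% of all genes). Cxcl9 was higher by a log2 fold change of 1.61 (adjusted p = 0.0042) and Oasl1 by 1.20 (adjusted p = 0.0192), followed by Dhx58 at 0.98, Irf7 at 0.97 and Irf9 at 0.51. Usp18 was lower, with 11.8, 13.8 and 4.59 CPM at 16 weeks, against 14.9, 15.9 and 17.9 CPM at 2 weeks, a log2 fold change of -1.04 (adjusted p = 0.0128). All 16-week libraries were below all 2-week libraries for this gene, and the 16-week male was the lowest. The count of 6 was 15 without PBS library 1 of 2 weeks, 3 without PBS library 2 of 2 weeks or PBS library 2 of 16 weeks, 2 without PBS library 3 of 2 weeks and 3 without the libraries of both sexes. Both age comparisons share the 2-week PBS libraries. Between 16 and 8 weeks in PBS mice 0 members differed by edgeR (0.413% of all genes), and 2 had an unadjusted p under 0.05 (15.4% of all genes), Cmpk2 at -0.79 and Rsad2 at -0.66 on the log2 scale.

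Other steps of the pathway were read from lists of genes. Of 17 interferon genes in the count table, 0 passed the filter on low counts, and 14 of them, the type I gene Ifnb1 included, had no count in any library. Ifng had 18 counts in all, Ifnk 12 and Ifnz 22, in 10, 7 and 12 libraries, so that the ligands were not measurable at this depth. Of 6 receptor chains 0 rose (2.55% of all genes did) and 0 fell (2.86% of all genes did) in the mean of the ages. Their median log2 fold change was 0.13, and 1 of the 6 was negative.

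Of 16 tested genes that sense nucleic acid or relay that signal, 1 fell in the mean of the ages (2.86% of all genes did), the kinase Ikbke, by a log2 fold change of -0.42 (adjusted p = 0.0238). Of 61 further interferon-stimulated genes 8 fell (2.86% of all genes did) and 0 rose, Eif2ak2, Samd9l, Samhd1, Uba7 and Nmi among them. Their median log2 fold change was -0.22, and 54 were negative. Uba7 starts the conjugation of Isg15, and it fell by a log2 fold change of -0.37 (adjusted p = 0.0448). Eif2ak2, the kinase that stops translation when it binds viral RNA, fell by -0.47 (adjusted p = 0.0204). The count of 8 was 0 without the libraries of both sexes or without the pair with squamous transcripts, and 15 with DESeq2 (5.35% of all genes). It was 1 without asparaginase library 1 of 2 weeks, asparaginase library 1 of 8 weeks or asparaginase library 3 of 16 weeks, and 2 without PBS library 2 of 2 weeks, asparaginase library 3 of 2 weeks or PBS library 2 of 16 weeks. It was 3 without PBS library 2 of 8 weeks, PBS library 1 of 16 weeks, asparaginase library 3 of 8 weeks or asparaginase library 1 of 16 weeks, and 4 without PBS library 1 of 2 weeks, PBS library 3 of 8 weeks or asparaginase library 2 of 8 weeks. Without PBS library 3 of 2 weeks it was 14. In females against males 29 of the 61 were higher (8.02% of all genes) and 0 lower. These 29 became 2 without PBS library 3 of 16 weeks, 7 without PBS library 2 of 8 weeks, 9 without asparaginase library 1 of 8 weeks, 19 without PBS library 2 of 16 weeks, 17 without the libraries of both sexes and 5 without the squamous pair.

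Among the GTPases that interferon gamma induces against intracellular pathogens, 14 were tested. Of these, 9 fell in the mean of the ages (2.86% of all genes did) and 0 rose, with a median log2 fold change of -0.58. Irgm1 fell by a log2 fold change of -0.74 (SE 0.10, adjusted p = 0.00246), and it passed in all 27 settings. Igtp fell by -0.90 (SE 0.13, adjusted p = 0.00301), Tgtp1 by -0.93 (SE 0.16, adjusted p = 0.00918) and Ifi47 by -0.69 (SE 0.11, adjusted p = 0.00548). The count of 9 was 3 without asparaginase library 1 of 2 weeks, 4 without asparaginase library 1 of 8 weeks or asparaginase library 3 of 16 weeks, 2 without the libraries of both sexes and 1 without the pair with squamous transcripts. In females against males 9 of the 14 were higher (8.02% of all genes) and 0 lower, and these 9 became 2 without PBS library 3 of 16 weeks, without asparaginase library 1 of 8 weeks or without the squamous pair. That these GTPases differ from the antiviral set in their effect was not tested. Of 20 genes of MHC class I presentation 4 fell (2.86% of all genes did), Psmb8 and Psme1 of the immunoproteasome and the chaperones Calr and Pdia3, and the list had a median of -0.22. That count was 1 without asparaginase library 1 of 2 weeks, asparaginase library 1 of 8 weeks or asparaginase library 3 of 16 weeks, 2 without asparaginase library 1 of 16 weeks, and 0 without the libraries of both sexes or the pair with squamous transcripts. DESeq2 called 8 lower, against 5.35% of all genes.

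Cell markers were summed because liver RNA comes from several cell types, and in such bulk RNA fewer cells of a type and less RNA per cell cannot be told apart. At 8 weeks the 17 Kupffer cell markers summed to 457.1 to 556.6 CPM with asparaginase, against 541.8 to 831.1 CPM with PBS; 16 of the 17 had a negative log2 fold change, with a median of -0.55, and none passed. At 2 weeks they summed to 729.3 to 862 CPM with asparaginase, against 637.9 to 858.6 CPM with PBS, and at 16 weeks to 736.8 to 983.7 CPM with asparaginase, against 642.9 to 866.6 CPM with PBS. At 2 and 16 weeks 6 and 7 of the 17 were negative, and 1 marker rose at 16 weeks (0.191% of all genes did). In the mean of the 3 ages 13 of the 17 were negative, with a median of -0.16. There 2 fell (2.86% of all genes did) and 1 rose (2.55% of all genes did). Markers of T and NK cells summed to 1.54 to 3.02 CPM with asparaginase at 8 weeks, against 2.29 to 6.44 CPM with PBS. B cell markers summed to 1.48 to 3.35 CPM with asparaginase at 8 weeks, against 1.92 to 7.97 CPM with PBS. Of 14 tested T and NK cell markers 11, 13 and 10 had a negative log2 fold change at 2, 8 and 16 weeks, with medians of -0.33, -0.62 and -0.19. Of 7 tested B cell markers 7, 6 and 3 were negative at these ages, with medians of -0.81, -1.31 and 0.05, and no marker of either list passed. The sums of both lists overlapped between treatments at every age. At 2 weeks T and NK cell markers summed to 6.26 to 9.51 CPM with asparaginase, against 4.41 to 11.1 CPM with PBS, and B cell markers to 3.56 to 5.54 CPM with asparaginase, against 4.56 to 7.77 CPM with PBS. At 16 weeks T and NK cell markers summed to 1.90 to 6.38 CPM with asparaginase, against 3.22 to 6.69 CPM with PBS, and B cell markers to 1.97 to 8.82 CPM with asparaginase, against 3.26 to 8.35 CPM with PBS. Markers of plasmacytoid dendritic cells, the main makers of type I interferon, summed to 15.5 to 44.5 CPM with asparaginase at 8 weeks, against 14.5 to 23.2 CPM with PBS, most of it from genes that other cells use too, since Siglech was at most 0.83 CPM. At 2 weeks they summed to 29.1 to 36.5 CPM with asparaginase, against 15.6 to 22.4 CPM with PBS, without overlap. At 16 weeks they summed to 13.7 to 46.9 CPM with asparaginase, against 15.4 to 21.9 CPM with PBS. Of the 8 tested, 4, 3 and 5 were negative at 2, 8 and 16 weeks, with medians of -0.15, 0.32 and -0.11. None passed at a single age, and 1 rose in the mean of the ages (2.55% of all genes did). No defining marker of these types was at 0 in every library; Pax5, Eomes and Tbx21 were at 0 in 5, 4 and 1 of the 18. In female against male adults the median log2 fold change was 1.85 for B cell markers and 1.23 for T and NK cell markers. It was 0.37 for Kupffer cell markers and 1.02 for plasmacytoid dendritic cell markers. Of those tested, 6 of 7, 4 of 14, 2 of 17 and 1 of 8 were higher, in this order (8.02% of all genes were). None was lower (4.87% of all genes were). These marker counts were not recomputed without single libraries. Markers of red blood cells and of tissues outside the liver were summed too. The 10 erythroid markers summed to 363.6 to 721.7 CPM with asparaginase, against 569.7 to 1592 CPM with PBS at 2 weeks, to 248.2 to 305.2 CPM with asparaginase, against 507.3 to 551.9 CPM with PBS at 8 weeks, and to 210.2 to 503.9 CPM with asparaginase, against 393.6 to 732.5 CPM with PBS at 16 weeks. The median log2 fold change of the 8 erythroid markers tested was -0.65, -0.83 and -0.65 at the 3 ages, with 6, 6 and 7 negative. The 14 markers of pancreatic acinar cells summed to 664 to 1899 CPM with asparaginase, against 76.28 to 197.7 CPM with PBS at 2 weeks, to 9.74 to 224.4 CPM with asparaginase, against 9.87 to 11.4 CPM with PBS at 8 weeks, and to 13.5 to 4770 CPM with asparaginase, against 13.0 to 728.3 CPM with PBS at 16 weeks. All 14 acinar markers had a positive log2 fold change at each age, with medians of 4.91, 7.06 and 1.29. The 10 markers of skeletal muscle summed to 50.5 to 323.6 CPM with asparaginase, against 18.4 to 259.6 CPM with PBS at 2 weeks, to 138 to 2089 CPM with asparaginase, against 273.5 to 747 CPM with PBS at 8 weeks, and to 2.82 to 18.9 CPM with asparaginase, against 40.6 to 231.6 CPM with PBS at 16 weeks. Of the 9 muscle markers tested, 2, 0 and 9 were negative at 2, 8 and 16 weeks, with medians of 0.30, 0.69 and -3.17. The summed levels did not overlap between treatments for erythroid markers at 8 weeks, acinar markers at 2 weeks and muscle markers at 16 weeks; they overlapped at the other ages, and no marker of these 3 lists passed at a single age. The acinar marker Prss1 was at 0 in 7 of the 18 libraries and the muscle marker Tnnc2 in 17. The part of these cell types and tissues in the results on the 35 genes was not tested.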

How the data were processed

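The authors deposited whole-number counts of reads per gene in 1 table of all libraries. TopHat2 2.0.9, TopHat, DESeq2, GRCm38 and mm10 are named in the submitters' processing notes, without their roles. No source used here gives the read counter, the annotation or the use of strand. Symbols and GRCm38 positions came from GENCODE M21, which matched 35449 of 37315 identifiers; promoters came from RefSeq (GRCm38.p6).

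Genes were kept by filterByExpr over the 6 groups (minimum count 10, minimum total 15; 16213 of 25426 with counts). A quasi-likelihood model (edgeR 4.0.16, R 4.3.3, TMM) was fitted to all 18 libraries with 1 coefficient for each of the 6 groups and, at each age, 1 for labelled sex (0.5 male, -0.5 female), with 9 residual degrees of freedom. All p-values of single genes are from this edgeR fit unless another tool is named, adjusted by Benjamini and Hochberg over all genes of a comparison; "rose", "fell", "higher" and "lower" in counts mean an adjusted p under 0.05. SE is the absolute log2 fold change over the square root of F. CPM use TMM-scaled library sizes, and the mean of the set a pseudocount of 0.5. Limma-voom (3.58.1) and DESeq2 (1.42.0) were alternatives. Simulated counts were used to test the scripts.

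The members, the lists and the comparison of sexes were chosen with earlier results of these data known. Full values were given for members past the threshold in an asparaginase effect or its mean and for the 4 of smallest p at each age. Members of other lists were named by that threshold. Replicates are numbered as deposited, and equal numbers pair no mice. Depth limits precision for the low genes: Mx1 and Oas3 rest on few counts.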

Additional observations from a re-analysis of the deposited data

How the results depend on the processing

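Of the 35 genes, the number that fell with asparaginase in the mean of the 3 ages was 9, and it was 17 with DESeq2, 14 without the filter on low counts, 0 without the 2-week libraries of both sexes and 0 without the 8-week libraries with squamous transcripts; leaving out 1 library gave 0 to 15. It stayed within 1.5 times with limma-voom, DESeq2's size factors, Mup genes left out, no sex term or a sex term in adults only. All 9 genes kept their direction in 27 of 27 settings, and each passed in 9 (Stat2) to 21 (Cxcl9) of them. At 2 weeks the count was 0 (1 with DESeq2; 0 to 1 leaving out 1 library), at 8 weeks 0 (5 with DESeq2, 4 without the filter; 0 leaving out any library) and at 16 weeks 0 in every setting. The adult mean had 0, but 7 with DESeq2, 2 with limma-voom or without the filter, 1 with DESeq2's size factors, without Mup genes or without the sex term, and 0 to 2 leaving out 1 library. Members that differed by age in PBS mice numbered 10 at 8 against 2 weeks (5 without libraries of both sexes; 2 to 15 leaving out 1 library) and 6 at 16 against 2 weeks (3; 2 to 15). The 15 higher in females became 1 without the libraries with squamous transcripts and 1 to 22 leaving out 1 library. With pseudocounts of 1 and 2 CPM the difference in the mean of the set was -0.31 and -0.25 at 2 weeks. It was -0.64 and -0.56 at 8 weeks and -0.41 and -0.36 at 16 weeks, with no term for sex at any age. Settings without particular libraries, and the adult and sex comparisons, were chosen after seeing the data. The setting without the libraries of both sexes also had a sex term in adults only. Fits without some libraries rest on fewer samples. Why their counts differ from the main fit was not tested. No paired analysis was possible because replicate numbers only follow the order of deposition.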
